A study of Mus musculus with 6 samples.

Results

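The genes described here encode enzymes and structural proteins that write, erase or read chromatin marks or that move nucleosomes. They are the Kdm2 to Kdm6 lysine demethylases, histone deacetylases of the zinc-dependent classes, sirtuins, Setd methyltransferases, DNA methyltransferases, Tet dioxygenases, Polycomb repressive complex 2 (PRC2), Cbx chromodomain proteins, and the Smarc and Chd nucleosome remodellers. They were taken by gene symbol, and 83 of the 24197 genes in the count table matched. The libraries are polyadenylated RNA of stromal-vascular cells, the non-adipocyte fraction of fat that holds adipocyte progenitors and fibroblasts, from the inguinal depot of C57BL/6 mice. In each group 3 libraries were sequenced. The Puro group had received a control (puro) retrovirus and the Prdm16 group a retrovirus carrying Prdm16, a zinc-finger regulator of brown and beige adipocytes. All cells of both groups were kept in standard growth medium, the labels record no adipogenic induction and no age or sex of the mice, and forced expression from a retrovirus need not match the level or timing of the endogenous gene.

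Chromatin enzymes work in opposing pairs: acetyl groups on histones are taken off by deacetylases, methyl groups are put on by SET-domain enzymes and taken off by Kdm enzymes, and methylated cytosine is made by Dnmt enzymes and oxidised by Tet enzymes. Many of these enzymes have close paralogs that take each other's place in a complex, such as Ezh1 and Ezh2 in PRC2, Smarca2 and Smarca4 in SWI/SNF, and Chd3, Chd4 and Chd5 in the deacetylase complex NuRD. In fat, several of them are known as cofactors of the transcription factors that drive adipocyte differentiation.

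Library totals ran from 28169059 to 35798201 counts, and the level of a gene is given as CPM, its count relative to the library total as scaled by TMM. A gene with 0 counts may have been present at up to 3 counts, or 0.0852 to 0.104 CPM, which covers counting error only. Prdm16 itself had 14, 22 and 25 counts in the Puro libraries and 98437, 72525 and 89054 in the Prdm16 libraries, as labelled. The labels do not state whether replicates are separate cultures or mice, and the p-values therefore speak only to the spread among the 6 libraries, part or all of which may be technical. Log2 fold changes are Prdm16 over Puro ± SE, and calls are at an adjusted p below 0.05 in the quasi-likelihood test of edgeR (Benjamini-Hochberg, 13805 genes). The median change differed between chromosomes, and the value with the median of its chromosome removed is given beside a called member where it ends the call, turns it or moves it by over 1.5 times.

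Of 9 tested preadipocyte and fibroblast markers 7 fell, 1 rose and 1 did not pass. The 10 markers summed to 8872 to 9692 CPM in Puro and 3757 to 4114 CPM in Prdm16 libraries. Most of that sum came from Col3a1 (5007 CPM in Puro and 1880 CPM in Prdm16 libraries on average), Col1a1 and Vim (1309 and 518 CPM), which all fell. The marker that did not pass was Pdgfra, at 199 CPM in Puro and 188 CPM in Prdm16 libraries on average. The marker that rose was Ly6a, from 376 to 988 CPM. Among those that fell, Cd34 went from 16.4 to 0.952 CPM and Col1a1 from 1705 to 145 CPM. In bulk RNA fewer cells of a type and less RNA per cell cannot be told apart. Of 8 mammary epithelial markers 4 rose and 4 had at most 4 counts over a group, among them Krt8, Krt5 and Krt14, and the sum went from 0.315 to 0.477 CPM up to 27.6 to 30.5 CPM. The 7 adipocyte markers summed to 137 to 151 CPM in Puro and 535 to 634 CPM in Prdm16 libraries, with 3 tested members higher and 1 lower. Most of that sum was Fabp4, at 115 CPM in Puro and 551 CPM in Prdm16 libraries on average. Adipoq (0.279 to 2.36 CPM) and Cidec (0.0895 to 3.46 CPM) rose from low levels, and Lipe fell from 30.2 to 17.7 CPM. Plin1, Lep and Retn had at most 10 counts over a group and were not tested. The 9 macrophage markers summed to 14.2 to 15.6 CPM in Puro and 8.72 to 8.89 CPM in Prdm16 libraries, with 2 of 3 tested markers lower and Emr1 and Tyrobp at 0 counts throughout. The 7 endothelial markers summed to 3.32 to 3.78 CPM in Puro and 9.37 to 12.2 CPM in Prdm16 libraries: Tek rose by 3.08 ± 0.15 on the log2 scale, Vwf fell (−2.57 ± 0.22), Kdr did not pass, and Cdh5 was at 0. All 5 tested pericyte and smooth muscle markers fell, among them Acta2 and Cspg4, and the 7 markers summed to 263 to 320.0 CPM in Puro and 34.9 to 45.9 CPM in Prdm16 libraries, with Kcnj8 at 0. Of 4 mesothelial markers Msln rose and Wt1 fell, and the sum went from 7.06 to 7.45 CPM up to 89.6 to 95.04 CPM. Of 4 tested Schwann cell markers 3 fell and 1 rose, with Sox10 at 0 and sums of 7.71 to 8.13 CPM in Puro and 3.03 to 3.35 CPM in Prdm16 libraries. The lymphocyte and skeletal muscle lists had no member that could be tested, and summed to at most 0.242 and 0.380 CPM. Of 35 proliferation genes 29 rose, 1 fell and 5 did not pass, with a median log2 fold change of 0.69. Their summed level was 6124 to 6184 CPM in Puro and 9692 to 9897 CPM in Prdm16 libraries. Beside the counts of these lists, 37.5% of all tested genes were higher and 38.0% lower in the same comparison. The proliferation antigen Mki67 went from 331 ± 17.4 to 858 ± 31.6 CPM (SD, n = 3), the topoisomerase Top2a from 542 ± 15.8 to 1297 ± 35.5 CPM and the cyclin Ccnb1 from 99.5 ± 0.693 to 236 ± 7.53 CPM. The part of these shifts in the results below was not tested.

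Most chromatin genes changed by small amounts and a handful by large ones. Of the 83 members 79 passed the filter on low counts, and 38 of them were higher, 16 lower and 25 did not pass. The 54 called members are 68.4% of those tested, against 75.6% of all genes tested in the same comparison (37.5% higher and 38.0% lower), a share near the background. By class the called share ran from 44.4% of 9 SWI/SNF genes to 88.9% of 9 Chd remodellers, on either side of that 75.6%. With so few genes a class these shares do not rank the classes. With chromosome medians removed 8 of the 9 SWI/SNF genes were called. The median log2 fold change was 0.11 over the tested members and −0.01 over all tested genes, and the median size of the change, without its sign, was 0.22 and 0.38. Only 5 tested members passed with a log2 fold change of at least 1 in size (6.33%), against 21.8% of all genes: Hdac9, Chd7 and Chd3 rose, and Chd5 and Kdm4d fell. The groups did not overlap in CPM for 54 members, against 77.6% of all genes. The 4 members too low to be tested were Kdm5d, Dnmt3l, the antisense transcript Dnmt3aos and the pseudogene Smarca5-ps, with at most 11 counts over a group. Kdm5d, a demethylase encoded on the Y chromosome, had 0 counts in all 6 libraries, as had its Y-linked relative Uty, while Xist, the RNA of the inactive X, lay between 801 and 1382 CPM.

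**Figure D1:**
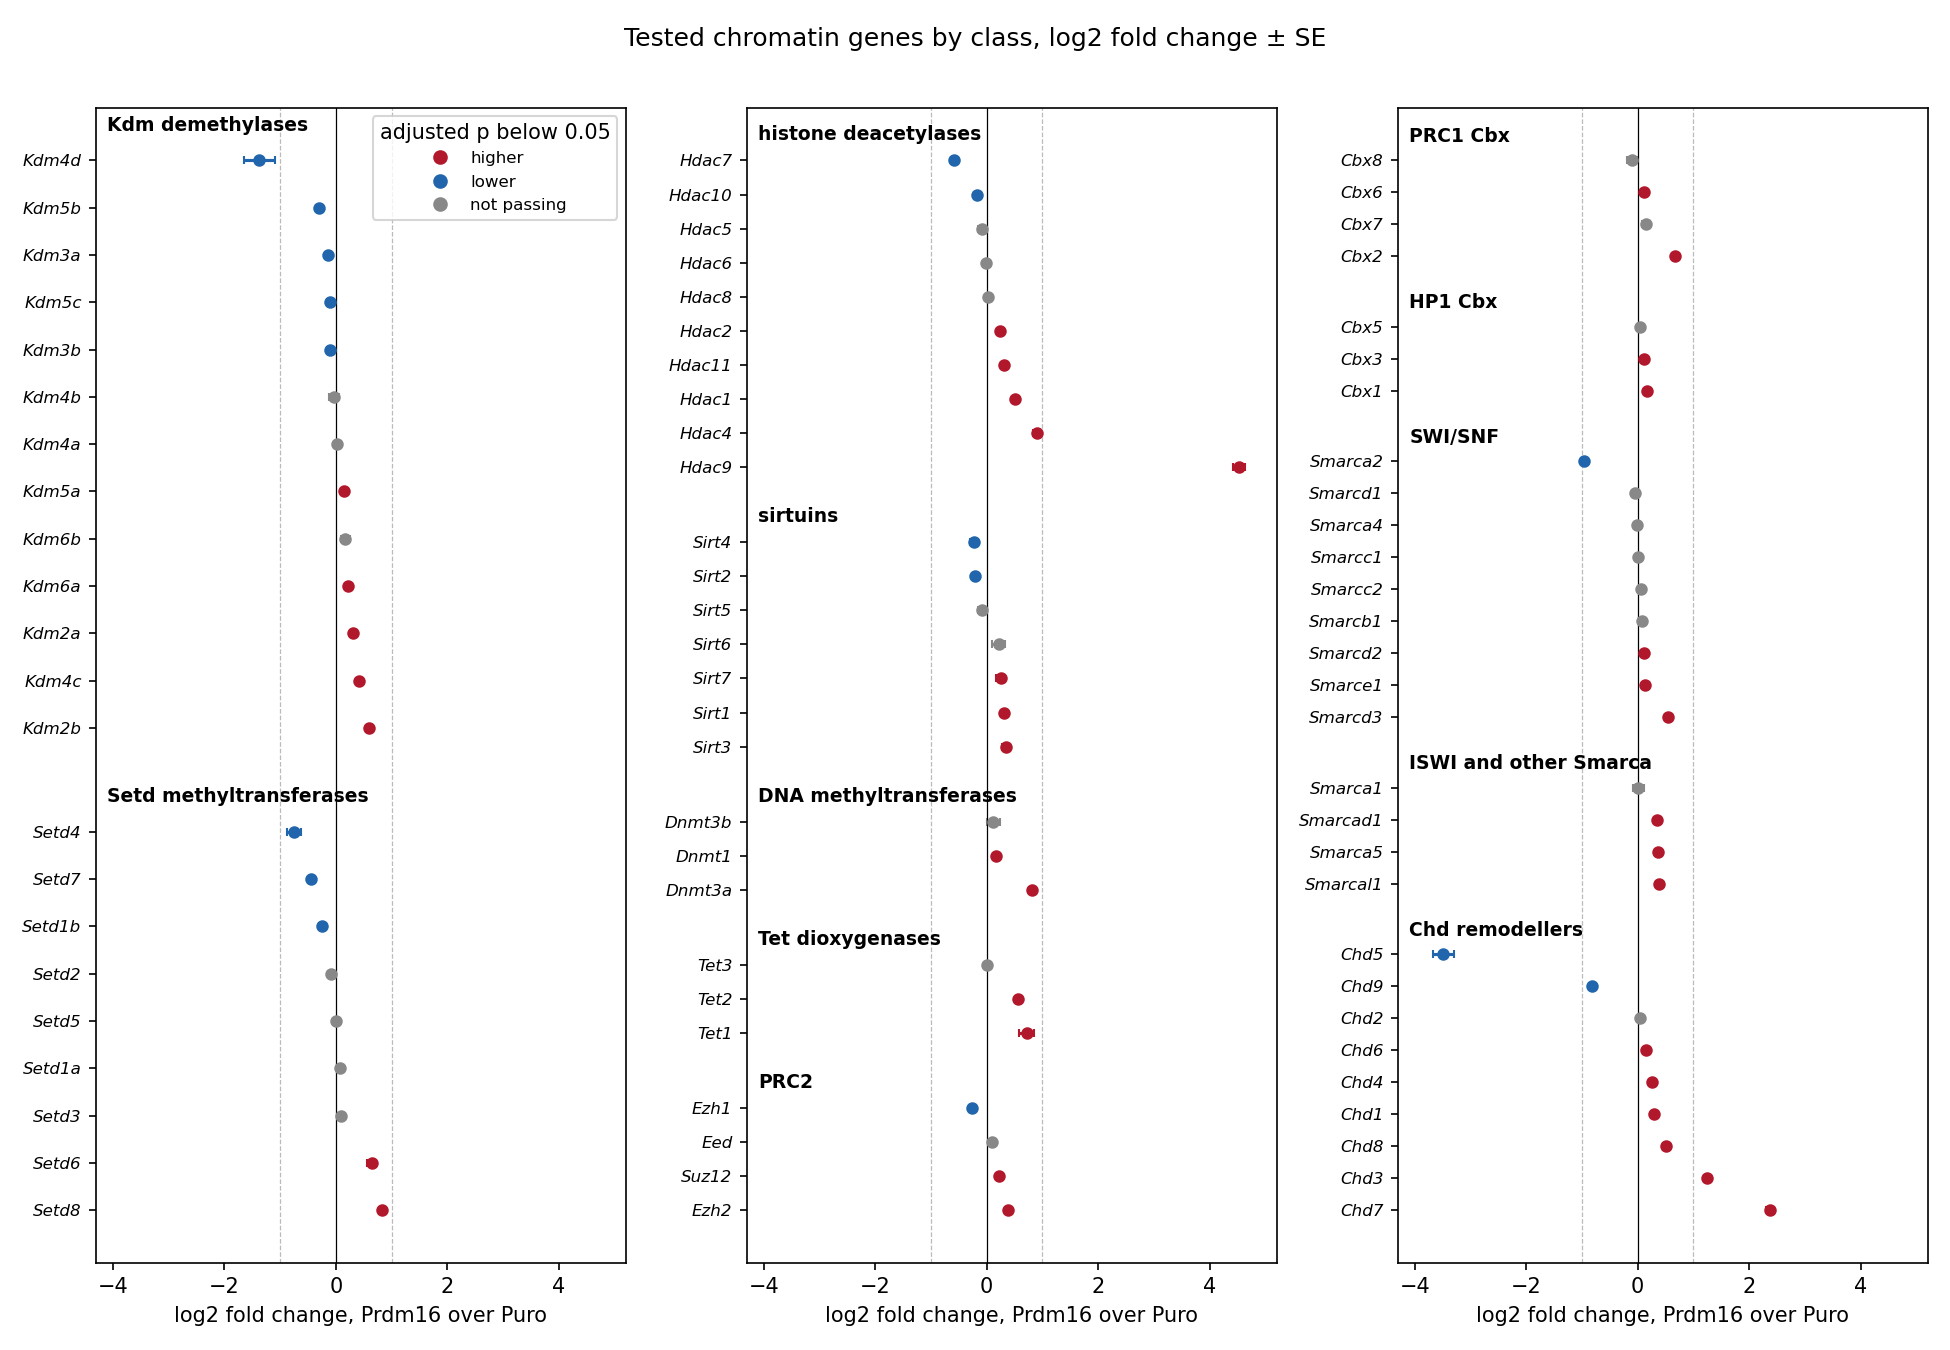
Log2 fold change of Prdm16 over Puro (horizontal axis, dashed lines at 1 and −1) for the tested members described here, in 12 classes; points are estimates from 3 libraries a group, whiskers are SE, and colour gives the call at an adjusted p below 0.05. Most members lie between the dashed lines, with Hdac9 at 4.53, Chd7 at 2.37 and Chd5 at −3.49 far outside them.

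Histone deacetylases held the largest rise, and of the 10 genes 5 were higher, 2 lower and 3 did not pass. The class IIa enzymes Hdac4, Hdac5, Hdac7 and Hdac9 shuttle between cytoplasm and nucleus and are known as repressive partners of Mef2 transcription factors. Hdac9, which is also known as a brake on adipocyte differentiation, had 0.935, 1.06 and 0.775 CPM in the Puro libraries and 20.8, 21.2 and 22.5 CPM in the Prdm16 libraries. Every Prdm16 library stood far above every Puro library. The log2 fold change was 4.53 ± 0.11, a 23.1-fold rise (adjusted p = 2.21e-11), and it stayed between 4.42 and 4.65 when each library was left out. Hdac4 rose as well, from 14.5, 13.1 and 14.1 CPM to 27.2, 25.6 and 24.6 CPM, a log2 fold change of 0.89 ± 0.06. Hdac7, known from endothelium and thymocytes, had 160, 163 and 180 CPM in Puro and 113, 110 and 111 CPM in Prdm16 libraries. It thus fell without overlap, at −0.59 ± 0.05 (adjusted p = 5.20e-07), or −0.21 with its chromosome median removed. Hdac5 had 105 ± 11.3 and 99.5 ± 11.3 CPM (SD, n = 3) with overlapping libraries (log2 fold change −0.08 ± 0.09, adjusted p = 0.434).

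Summed over the 4 class IIa genes the reads were 287 ± 21.9 CPM in Puro and 258 ± 13.2 CPM in Prdm16 libraries (SD, n = 3), and the 2 ranges overlapped. The makeup of the class moved within that sum. On a scale of CPM per kilobase of merged exons, Hdac9 was 0.169% ± 0.0356 of the 4 genes in Puro and 4.75% ± 0.330 in Prdm16 libraries (SD, n = 3). Hdac4 went from 2.34% to 5.28% on the same scale and Hdac7 from 65.8% to 53.4%, which left Hdac7 the leading member in both groups.

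The starts of Hdac9 and Hdac4, both higher in Prdm16 libraries, are shown because their sequences differ in type. The windows run from 250 bases before to 50 bases after an annotated start, from RefSeq on GRCm38.p6, a build other than the mm9 named for the counts, and which start was used in these cells was not measured. Capitals mark the GC box (GGGCGG), the CCAAT box (CCAAT) and the TATA box (TATAAA) on either strand, and no 2 marked boxes overlap.
Hdac9, start with the lower coordinate (chr12:34528840-34529139, minus strand): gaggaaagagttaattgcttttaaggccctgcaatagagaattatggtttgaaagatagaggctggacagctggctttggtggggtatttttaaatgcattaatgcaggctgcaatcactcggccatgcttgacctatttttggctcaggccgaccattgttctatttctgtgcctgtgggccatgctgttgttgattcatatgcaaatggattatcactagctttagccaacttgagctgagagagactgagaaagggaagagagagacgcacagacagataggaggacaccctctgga
Hdac9, start with the higher coordinate (chr12:34917046-34917345, minus strand): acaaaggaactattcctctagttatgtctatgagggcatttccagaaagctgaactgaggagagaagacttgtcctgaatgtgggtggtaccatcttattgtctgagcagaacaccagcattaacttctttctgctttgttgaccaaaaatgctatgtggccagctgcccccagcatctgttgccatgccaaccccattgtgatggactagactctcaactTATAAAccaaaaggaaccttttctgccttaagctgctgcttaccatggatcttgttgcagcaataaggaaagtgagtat
Hdac4 (chr1:92180292-92180591, minus strand): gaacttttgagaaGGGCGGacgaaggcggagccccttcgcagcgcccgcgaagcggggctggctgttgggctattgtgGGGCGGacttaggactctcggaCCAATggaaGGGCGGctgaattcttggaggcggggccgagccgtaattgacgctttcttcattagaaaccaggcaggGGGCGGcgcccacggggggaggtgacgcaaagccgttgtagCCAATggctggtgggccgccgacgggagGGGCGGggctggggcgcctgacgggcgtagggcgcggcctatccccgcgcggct
The 2 Hdac9 windows held 3 and 0 CG dinucleotides and no GC box, and the second held 1 TATA box. The Hdac4 window held 32 CG dinucleotides, 5 GC boxes and 2 CCAAT boxes. Windows were found for 67 of the 83 members, 94 windows in all, with a median of 22.5 CG dinucleotides, against 7 over 32851 windows of all genes. A GC box was in 68.1% of the member windows and 35.7% of all windows, a CCAAT box in 38.3% and 37.4%, and a TATA box in 4.26% and 13.6%. A match is a string of letters and not a measured binding site.

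The class I deacetylases Hdac1 and Hdac2, the catalytic subunits of the NuRD, Sin3 and CoREST complexes, were abundant and rose modestly. Hdac1 had 179, 175 and 173 CPM in Puro and 247, 249 and 253 CPM in Prdm16 libraries. These sets were far apart relative to their spread, with a log2 fold change of 0.51 ± 0.03 (adjusted p = 7.31e-08). Hdac2 rose by 0.24 ± 0.05, and Hdac8, the X-linked class I enzyme, had 0.03 ± 0.05 (adjusted p = 0.633). Hdac11, the sole class IV enzyme, rose from 16.8, 16.7 and 17.1 CPM to 21.2, 20.6 and 20.8 CPM (0.31 ± 0.05). Of the class IIb enzymes, the tubulin deacetylase Hdac6 had −0.01 ± 0.04 (adjusted p = 0.764) and the polyamine deacetylase Hdac10 had −0.17 ± 0.06 (adjusted p = 0.0248), which turned to 0.21 with its chromosome median removed. The call of Hdac10 was lost without Puro replicate 2 or 3 or without Prdm16 replicate 2 or 3, with values of −0.21 to −0.13 over the runs that each left out 1 library.

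**Figure D2:**
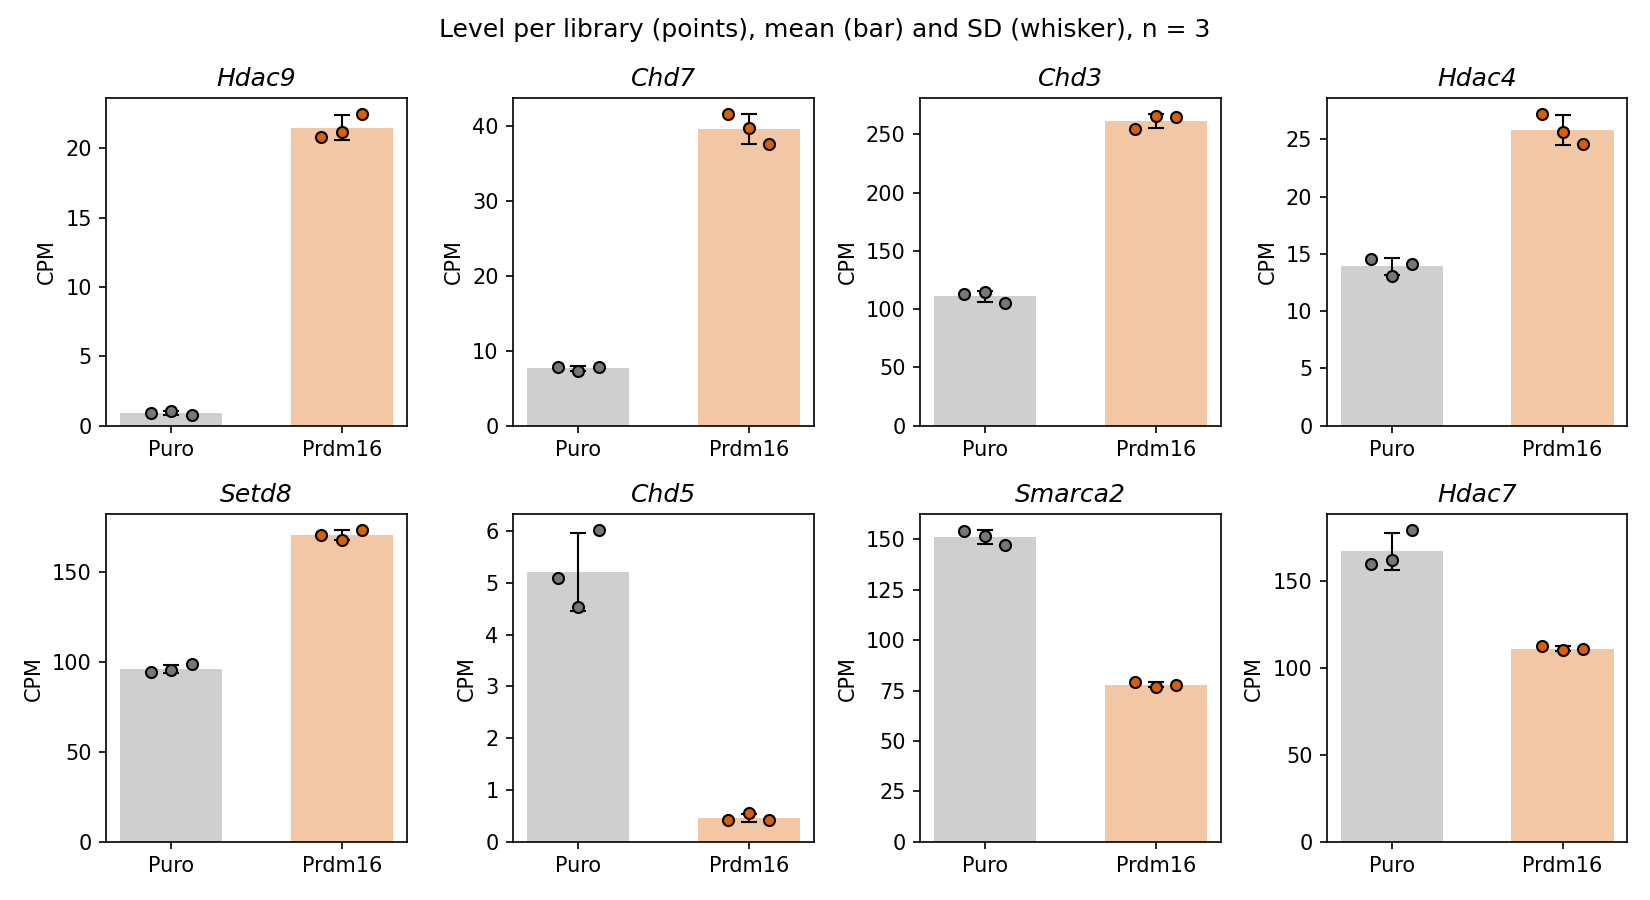
CPM (vertical axis, from 0) of 8 members in each library; points are the 3 libraries of a group, bars the mean and whiskers the SD. The 2 groups do not overlap for any of the 8; Hdac9 goes from about 1 CPM to between 20.8 and 22.5 CPM, and Smarca2 from above 147 CPM to below 80 CPM.

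Sirtuins, deacylases that need NAD, moved by less than 0.36 on the log2 scale in either direction: 3 rose, 2 fell and 2 did not pass. The nuclear deacetylase Sirt1 rose from 46.4, 45.0 and 44.6 CPM to 54.4, 57.0 and 57.3 CPM, and the libraries did not overlap (log2 fold change 0.31 ± 0.04, adjusted p = 3.17e-05). The mitochondrial deacetylase Sirt3 rose by 0.35 ± 0.07, and Sirt7, an enzyme of the nucleolus, by 0.25 ± 0.08, a call lost without Puro replicate 1 (0.21 to 0.32 with each library left out). Sirt2, mostly cytoplasmic, went from 117, 121 and 124 CPM to 105, 102 and 106 CPM. That was a fall without overlap (−0.21 ± 0.04, adjusted p = 5.94e-04), and the mitochondrial Sirt4 fell too, at −0.23 ± 0.07 (−0.42 with its chromosome median removed). Sirt5, a desuccinylase, had −0.08 ± 0.08, and Sirt6, a deacetylase of telomeric chromatin, 0.21 ± 0.11. Neither passed, though Sirt6 was called without Puro replicate 3 or Prdm16 replicate 2 (0.12 to 0.34).

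Of 13 tested lysine demethylases 5 were higher, 5 were lower and 3 did not pass, shares near the 37.5% higher and 38.0% lower of all tested genes. The Kdm2 enzymes, which bind unmethylated CpG islands and act on H3K36, were both called higher, Kdm2a only as long as chromosome medians were left in. Kdm2b, which also brings a Polycomb complex to CpG islands, had 43.0, 43.2 and 48.2 CPM in Puro and 70.8, 65.0 and 66.5 CPM in Prdm16 libraries. All 3 Prdm16 values lay above the Puro values (log2 fold change 0.59 ± 0.05, adjusted p = 1.51e-06). Kdm2a rose from 338, 340 and 341 CPM to 416, 431 and 410 CPM, at 0.30 ± 0.03, but was called lower, at −0.09 (adjusted p = 0.0341), with its chromosome median removed. The Kdm3 enzymes remove H3K9 methylation, and Kdm3a is known to be needed for normal fat metabolism in mice. Kdm3a had −0.13 ± 0.05 (adjusted p = 0.026) with overlapping libraries, and Kdm3b −0.10 ± 0.03 (adjusted p = 0.0228), which turned to 0.31 with its chromosome median removed. The call of Kdm3a was lost without Puro replicate 1 or 2 or Prdm16 replicate 2 or 3, and that of Kdm3b without Puro replicate 2 or Prdm16 replicate 1 or 3, with ranges of −0.17 to −0.09 and −0.11 to −0.08.

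Of the Kdm4 enzymes, which act on H3K9, Kdm4c rose by 0.41 ± 0.04, while Kdm4a (0.03 ± 0.03) and Kdm4b (−0.03 ± 0.08) did not pass. Kdm4d, a form best known from testis, fell from 1.19, 0.946 and 0.983 CPM to 0.511, 0.207 and 0.449 CPM. It was scarce in both groups, with 103 counts in all Puro libraries and 39 in all Prdm16 libraries (log2 fold change −1.37 ± 0.28, adjusted p = 0.00105, and −1.61 to −1.102 with each library left out). The Kdm5 enzymes erase H3K4 methylation. Kdm5b fell from 59.6, 55.3 and 54.0 CPM to 46.5, 46.5 and 43.7 CPM (−0.30 ± 0.05), whereas Kdm5a rose by 0.15 ± 0.04. The X-linked Kdm5c, the more abundant of the tested Kdm5 genes also per kilobase, had −0.10 ± 0.03 (adjusted p = 0.0234), a call lost without Puro replicate 1 or 3 or Prdm16 replicate 1 or 3 (range −0.12 to −0.08). Of the H3K27 demethylases, Kdm6a on the X chromosome rose by 0.22 ± 0.04 and Kdm6b had 0.17 ± 0.09 (adjusted p = 0.0935), which was called without Puro replicate 3 or Prdm16 replicate 2 (0.07 to 0.25).

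Setd methyltransferases had 2 higher, 3 lower and 4 not passing among 9. Setd8, which puts the single methyl group on H4K20 and is known to be needed for cell division and adipogenesis, had 94.4, 95.6 and 98.6 CPM in Puro and 170.3, 167 and 173 CPM in Prdm16 libraries. The change was large against a spread of a few CPM (log2 fold change 0.82 ± 0.04, a 1.77-fold rise, adjusted p = 3.30e-09). Proliferation genes rose in the same libraries, as given above. Setd6, which methylates the NF-kappaB subunit RelA, rose by 0.65 ± 0.08. Setd7, a monomethyltransferase of H3K4 and of several transcription factors, went the other way, from 228, 217 and 215 CPM to 165, 162 and 159 CPM. Its libraries did not overlap (−0.44 ± 0.04, adjusted p = 5.87e-07, and −0.24 with its chromosome median removed). Setd1b, a subunit of a COMPASS H3K4 methyltransferase complex, fell by 0.24 ± 0.06 on the log2 scale, or by 0.42 with its chromosome median removed, and Setd4 by 0.74 ± 0.12. Setd1a, the paralog of Setd1b, had 0.08 ± 0.04 (adjusted p = 0.0843), Setd2, which trimethylates H3K36, −0.08 ± 0.06, the actin methyltransferase Setd3 0.09 ± 0.04, and Setd5 0.00 ± 0.04. Setd2 was called without Puro replicate 3 and Setd3 without Prdm16 replicate 1, over ranges of −0.13 to −0.01 and 0.06 to 0.11.

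The 6 tested enzymes of DNA methylation and its removal rose or did not pass: 2 of 3 Dnmt genes and 2 of 3 Tet genes were higher. Dnmt3a, a de novo methyltransferase, had 61.0, 63.0 and 67.0 CPM in Puro and 111, 111 and 112 CPM in Prdm16 libraries. The Prdm16 values were nearly equal and well above the others (log2 fold change 0.80 ± 0.04, adjusted p = 1.74e-08). Dnmt3b, the second de novo enzyme, was scarce at 3.96 ± 0.454 and 4.30 ± 0.222 CPM (SD, n = 3; 0.11 ± 0.11, adjusted p = 0.379). Dnmt1, which copies methylation after replication, rose from 505, 515 and 514 CPM to 565, 591 and 574 CPM, a log2 fold change of 0.17 ± 0.03 (0.28 with its chromosome median removed). Most genes of DNA replication in the proliferation list rose, among them the clamp Pcna (0.45 ± 0.04) and the helicase subunit Mcm2 (0.25 ± 0.04). Also higher were Mcm3 (0.197 ± 0.04), Mcm5 (0.49 ± 0.03), Mcm7 (0.31 ± 0.04) and Cdc6 (0.31 ± 0.05). So were Rrm1 (0.36 ± 0.04), Tk1 (0.51 ± 0.04), Tyms (0.78 ± 0.04) and Rrm2 (0.999 ± 0.04). Mcm4 (−0.07 ± 0.04), Mcm6 (0.06 ± 0.03), Cdt1 and Gins2 did not pass, and the primase subunit Prim1 fell (−0.23 ± 0.05). Dnmt3l, a cofactor of the de novo enzymes in germ cells, had 6 counts in all Puro libraries together and 4 in all Prdm16 libraries, too few for a test.

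Among the Tet enzymes, Tet2 rose from 49.8, 50.1 and 50.4 CPM to 75.2, 74.5 and 71.8 CPM. The SD was 0.313 CPM in Puro and 1.79 CPM in Prdm16 libraries (n = 3; log2 fold change 0.56 ± 0.04, adjusted p = 9.34e-08). Tet1 was scarce, at 3.64, 3.24 and 2.56 CPM against 5.62, 4.73 and 5.12 CPM (0.72 ± 0.14, adjusted p = 5.57e-04, and 0.59 to 0.83 with each library left out). Tet3 had 150.3 ± 2.20 and 150.7 ± 4.04 CPM (SD, n = 3; 0.00 ± 0.04). Per kilobase of merged exons Tet3 was the leading member in both groups, with 73.9% ± 0.387 of the 3 genes in Puro and 65.7% ± 0.1003 in Prdm16 libraries (SD, n = 3), and Tet2 went from 24.4% to 31.9%.

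In PRC2, which methylates H3K27, the catalytic paralogs moved apart, and of the 4 core genes 2 were higher and 1 lower. Ezh2, the form known from dividing cells, rose from 133, 131 and 123 CPM to 167, 169 and 168 CPM (log2 fold change 0.38 ± 0.04, adjusted p = 4.98e-06). Ezh1, the form known from resting cells, had 51.2, 50.8 and 51.0 CPM in Puro and 43.1, 42.6 and 41.4 CPM in Prdm16 libraries. No library of either gene overlapped with the other group, and Ezh1 fell at −0.27 ± 0.04 (adjusted p = 7.54e-05). Ezh2 made up 73.8% ± 0.799 of the Ezh level per kilobase in Puro and 81.5% ± 0.347 in Prdm16 libraries (SD, n = 3). The core subunit Suz12 rose by 0.23 ± 0.05, and Eed, which binds methylated H3K27, had 0.10 ± 0.04 (adjusted p = 0.0618), called only without Puro replicate 2 among those runs (0.06 to 0.12).

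The Cbx proteins of Polycomb repressive complex 1 (PRC1), which read H3K27 methylation, moved most in Cbx2 among those described here. Cbx2 rose from 28.9, 30.8 and 31.7 CPM to 49.3, 48.8 and 47.3 CPM, without overlap (log2 fold change 0.67 ± 0.05, adjusted p = 1.95e-07). Cbx6 had 420.9, 420.8 and 455 CPM in Puro and 485, 459 and 453 CPM in Prdm16 libraries, an overlap in 1 library (0.11 ± 0.04, adjusted p = 0.038, and 0.49 with its chromosome median removed). Cbx7 had 0.14 ± 0.06 (adjusted p = 0.0542) and Cbx8 −0.10 ± 0.09. The call of Cbx6 was lost without Puro replicate 1 or 2 or Prdm16 replicate 1 (0.08 to 0.15). Cbx7 was called without Puro replicate 3 or Prdm16 replicate 2 (0.10 to 0.21), and with its chromosome median removed (0.53). The heterochromatin protein 1 forms, which read H3K9 methylation, differed by at most 0.17 with chromosome medians left in. Cbx1 rose from 55.7, 53.3 and 54.6 CPM to 60.9, 61.0 and 62.4 CPM (0.17 ± 0.04). Cbx3 went from 49.9, 50.5 and 47.9 CPM to 50.8, 54.7 and 55.1 CPM, nearly touching (0.11 ± 0.05, adjusted p = 0.0387). Cbx5 had 0.04 ± 0.04 (adjusted p = 0.393), but was called higher, at 0.42 (adjusted p = 2.43e-06), with its chromosome median removed. The call of Cbx3 was lost without any 1 of the 3 Puro libraries or without Prdm16 replicate 2 or 3 (0.09 to 0.16), and with its chromosome median removed (0.07, adjusted p = 0.186).

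SWI/SNF remodellers carry 1 of 2 ATPases, Smarca4 (Brg1) or Smarca2 (Brm), with shared core subunits. Of its 9 genes 3 were higher, 1 was lower and 5 did not pass, and 8 were called with chromosome medians removed. Smarca2 had 154, 152 and 147 CPM in Puro and 79.1, 76.8 and 77.7 CPM in Prdm16 libraries. It fell in every Prdm16 library to about the same level (log2 fold change −0.96 ± 0.04, 1.94-fold lower, adjusted p = 1.24e-09). Smarca4 had 339 ± 14.4 and 335 ± 6.03 CPM (SD, n = 3) with overlapping libraries (−0.02 ± 0.04, adjusted p = 0.692). Per kilobase, Smarca2 was 16.8% ± 0.894 of the 2 ATPases in Puro and 9.55% ± 0.122 in Prdm16 libraries (SD, n = 3). The core subunits Smarcb1, Smarcc1 and Smarcc2 had log2 fold changes of 0.08 ± 0.05, −0.00 ± 0.04 and 0.06 ± 0.03, none past the threshold, though Smarcb1 was called without Puro replicate 3 (0.04 to 0.13). Smarcd3, a subunit known from heart and muscle, rose from 23.0, 23.6 and 26.3 CPM to 38.0, 33.9 and 34.8 CPM (0.55 ± 0.06, adjusted p = 1.42e-05), beside 0.11 ± 0.03 for Smarcd2 and −0.04 ± 0.04 for Smarcd1, which did not pass. The call of Smarcd2 was lost without Puro replicate 2 (0.10 to 0.12). Smarce1, an HMG-box subunit, had 0.13 ± 0.04, a call lost without Puro replicate 3 or Prdm16 replicate 2 (0.09 to 0.15).

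The window at the start of Smarca2, the member of this complex with the largest change, is given in the same way (RefSeq, GRCm38.p6, capitals for the boxes named above), and it held 2 GC boxes and 29 CG dinucleotides.
Smarca2 (chr19:26604910-26605209, plus strand): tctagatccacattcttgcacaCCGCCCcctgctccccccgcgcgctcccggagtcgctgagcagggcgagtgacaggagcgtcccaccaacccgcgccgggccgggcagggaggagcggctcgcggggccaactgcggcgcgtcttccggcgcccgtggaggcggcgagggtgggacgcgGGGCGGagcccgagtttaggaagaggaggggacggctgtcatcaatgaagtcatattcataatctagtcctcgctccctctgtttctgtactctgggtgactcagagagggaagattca

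Among the other Smarca proteins, the ISWI ATPase Smarca5, which spaces nucleosomes, rose from 195, 186 and 175 CPM to 228, 245 and 243 CPM (log2 fold change 0.36 ± 0.05, adjusted p = 2.43e-05). The groups did not overlap. The annealing helicase Smarcal1 went from 36.9, 41.0 and 39.5 CPM to 47.6, 52.6 and 53.8 CPM, a rise of 0.39 ± 0.06. Smarcad1, which keeps silent chromatin through replication, rose by 0.34 ± 0.05, and Smarca1, the scarce ISWI paralog, had 0.01 ± 0.09.

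Of the 9 Chd remodellers, named for their chromodomains, 6 were higher, 2 lower and 1 did not pass. They held 3 of the 5 members with a log2 fold change of at least 1 in size. Chd7, a remodeller of enhancers known for its role in the neural crest, had 7.84, 7.28 and 7.87 CPM in Puro and 41.6, 39.8 and 37.6 CPM in Prdm16 libraries. The groups were far apart (log2 fold change 2.37 ± 0.06, a 5.18-fold rise, adjusted p = 6.22e-11). The related Chd9 went the other way, from 109, 102 and 97.6 CPM to 58.8, 60.8 and 55.8 CPM (−0.82 ± 0.05, 1.76-fold lower, adjusted p = 6.93e-08). Chd6 rose by 0.15 ± 0.04. Chd8 had 0.50 ± 0.05, a call that ended with its chromosome median removed (0.01, adjusted p = 0.789). Chd1, which binds trimethylated H3K4, rose by 0.30 ± 0.05, and Chd2 had 0.04 ± 0.04 (adjusted p = 0.397).

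The NuRD ATPases split. Chd3 rose from 113, 114 and 105 CPM to 255, 265 and 265 CPM (log2 fold change 1.24 ± 0.04, a 2.36-fold rise, adjusted p = 3.10e-10). Chd4, the leading form in both groups, rose from 569.8, 564 and 568 CPM to 654, 692 and 683 CPM (0.25 ± 0.03). Chd5, a form known from neurons and as a tumour suppressor, had 5.10, 4.53 and 6.02 CPM in Puro and 0.426, 0.553 and 0.419 CPM in Prdm16 libraries. The fall was 11.2-fold on a low level, from 518 to 45 counts in all libraries of a group (−3.49 ± 0.19, adjusted p = 2.07e-08). Per kilobase, Chd3 went from 15.6% ± 0.615 to 26.9% ± 0.159 of the 3 genes (SD, n = 3), Chd4 from 83.8% to 73.1% and Chd5 from 0.645% to 0.0421%. The summed level of the 3 genes was 683 ± 4.53 CPM in Puro and 939 ± 26.1 CPM in Prdm16 libraries (SD, n = 3).

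1 of the 2 annotated starts of Chd5, the member with the largest fall, lies in a window of 32 CG dinucleotides and 3 GC boxes (RefSeq, GRCm38.p6, marked as above), against 3 and 0 CG dinucleotides for Hdac9, the member with the largest rise. The window of Hdac4, which also rose, held 32 CG dinucleotides as well.
Chd5 (chr4:152338401-152338700, plus strand): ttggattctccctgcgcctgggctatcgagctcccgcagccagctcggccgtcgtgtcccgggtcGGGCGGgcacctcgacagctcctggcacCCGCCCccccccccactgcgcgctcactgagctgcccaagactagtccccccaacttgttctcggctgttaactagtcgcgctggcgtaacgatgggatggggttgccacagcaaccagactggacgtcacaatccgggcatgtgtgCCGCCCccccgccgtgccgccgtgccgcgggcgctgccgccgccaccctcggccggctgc

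The balance between paralogs was read within each library as the log2 ratio of their CPM (pseudocount 0.5, which weighs on genes near 1 CPM such as Hdac9 in Puro libraries). Of 22 pairs 17 had ratios that did not overlap between the groups. The CPM of single genes, a different measure, did not overlap for 77.6% of all tested genes, and no share over other gene pairs was computed. With 3 against 3 libraries an exact two-sided permutation test cannot go below p = 0.1, which those pairs had, so the ratios are given as values. Hdac9 to Hdac7 had −6.81, −6.71 and −7.14 in Puro and −2.41, −2.35 and −2.28 in Prdm16 libraries, a difference of 4.54, or 4.994 with a pseudocount of 0.1. Chd3 to Chd4 went from −2.35 ± 0.0661 to −1.37 ± 0.0116 (SD, n = 3), Hdac4 to Hdac5 from −2.87 ± 0.172 to −1.92 ± 0.137, and Smarca4 to Smarca2 from 1.16 ± 0.0930 to 2.10 ± 0.0203. Differences of 0.76 for Cbx2 to Cbx8, 0.69 for Dnmt3a to Dnmt3b and 0.64 for Ezh2 to Ezh1 followed. The ratio moved down for Smarcd1 to Smarcd3 (−0.58), Tet3 to Tet2 (−0.55) and Kdm5b to Kdm5a (−0.45). Chromosome medians were left in these ratios. With them removed the log2 fold changes of Smarcd1 (chromosome 15) and Smarcd3 (chromosome 5) were close, at 0.34 and 0.37. Those of Smarca4 (chromosome 9) and Smarca2 (chromosome 19) stayed apart, at 0.09 and −1.34. The 5 pairs that overlapped were Tet1 to Tet2, Smarcc1 to Smarcc2, Kdm3a to Kdm3b, Kdm6b to Kdm6a and Cbx7 to Cbx6, with differences between −0.06 and 0.09.

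**Figure D3:**
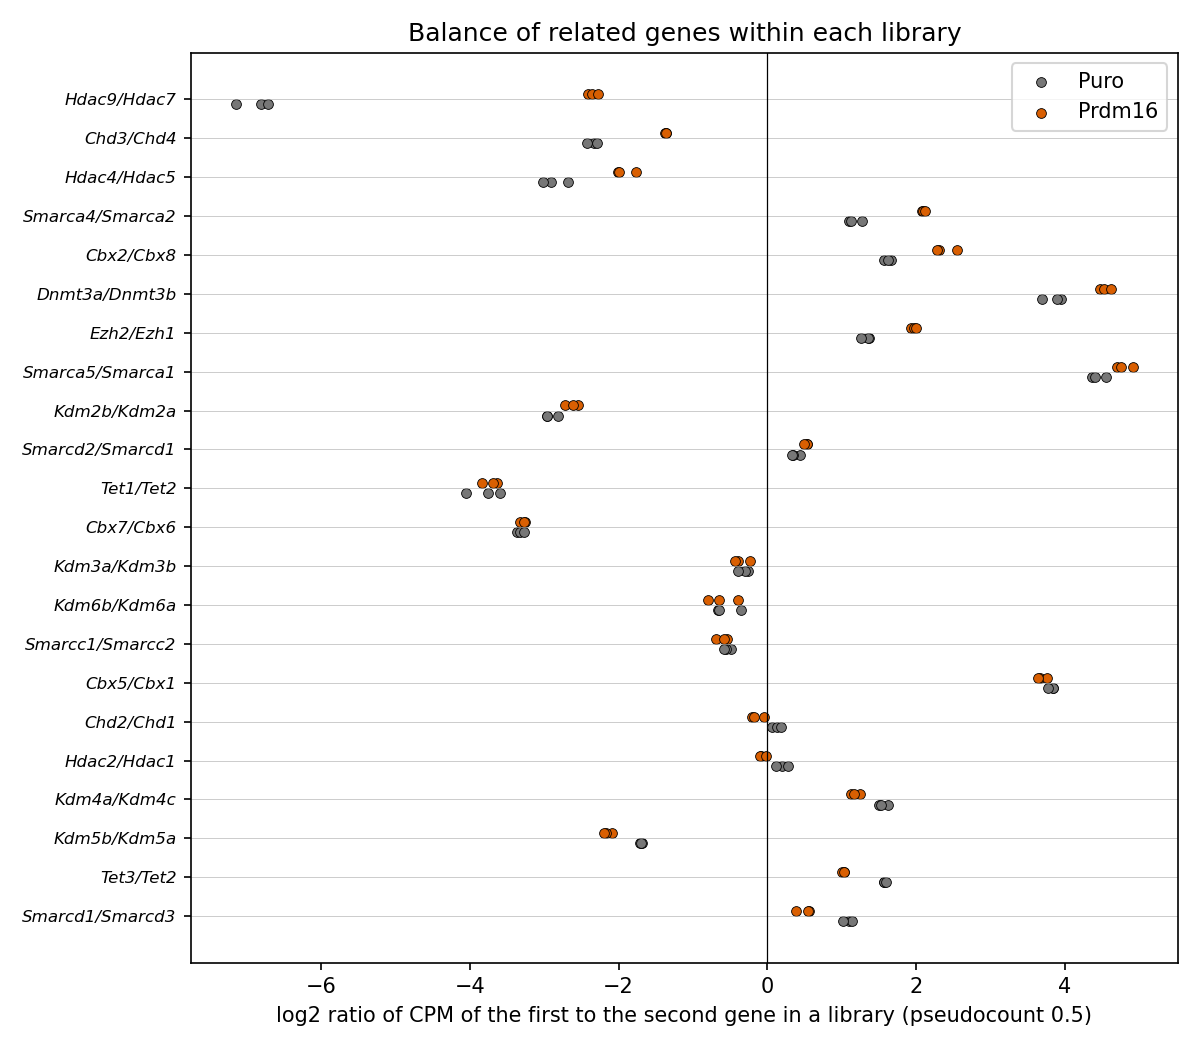
Log2 ratio of the CPM of 2 related genes in each library (horizontal axis) for 22 pairs, ordered by the difference between groups; each point is 1 library, 3 a group. The Prdm16 points lie to the right of the Puro points for the upper pairs, most for Hdac9 to Hdac7, and to the left for the lowest pairs.

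Some members lie on chromosomes whose genes moved together. The median log2 fold change of all tested genes was 0.49 on chromosome 14, 0.39 on chromosome 19, −0.38 on chromosome 15 and −0.41 on chromosome 18, and between −0.20 and 0.18 on the others (chromosomes from GENCODE on GRCm38, matched by symbol). With them removed Chd8, on chromosome 14, lost its call and Kdm2a, on chromosome 19, turned, as given above. Smarca2, also on chromosome 19, went from −0.96 to −1.34. On chromosome 15, Hdac7 came nearer to 0, Hdac10 turned, and Cbx5, Cbx6, Cbx7 and Smarcd1 came to lie between 0.34 and 0.53. Kdm3b, on chromosome 18, turned as well. Smaller medians moved Setd7 on chromosome 3, Setd1b and Sirt4 on chromosome 5 and Dnmt1 on chromosome 9 by over 1.5 times without a change of call. In all, with the medians removed, 47 members were higher and 15 lower, against 72.8% of all tested genes called. Of the 54 calls 49 kept their direction, 3 turned, 2 were lost and 10 were gained. Those gained, all higher, were Cbx5, Cbx7, Eed, Kdm6b, Setd1a, Setd3, Smarca4, Smarcc1, Smarcc2 and Smarcd1. Hdac9 on chromosome 12, Chd7 and Chd5 on chromosome 4, Chd3 on chromosome 11 and Dnmt3a on chromosome 12 lie where the median was between −0.07 and −0.04.

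**Figure D4:**
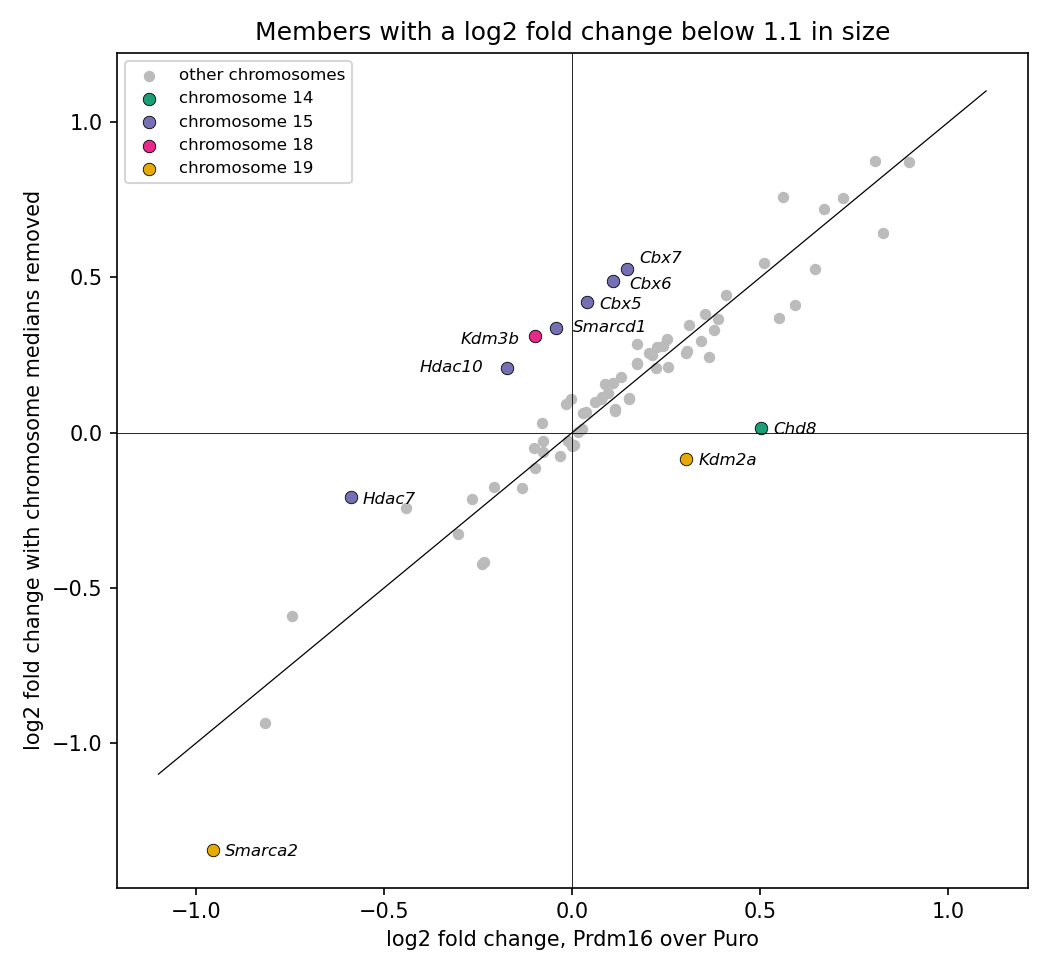
Log2 fold change of Prdm16 over Puro for the members below 1.1 in size (horizontal axis) against the same value with the median of each gene's chromosome removed (vertical axis); each point is 1 gene, the line marks equal values, and colours mark chromosomes 14, 15, 18 and 19. Chd8 falls to 0.01, Kdm2a, Kdm3b, Smarcd1 and Hdac10 change sign, and Smarca2 moves to −1.34.

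Partner genes that the symbol rule does not match were described from a separate list: of 132 tested, 78 were higher, 25 were lower and 29 did not pass, with a median log2 fold change of 0.19, against 75.6% called over all genes. The corepressor partners of deacetylases had 15 higher and 1 lower of 20. The NuRD subunit Mta2 rose by 0.79 ± 0.03, the CoREST subunit Rcor2 by 1.28 ± 0.06 and the Sin3 subunit Sap30 by 1.07 ± 0.06. Among the members given above, Hdac1, Hdac2, Chd3 and Chd4 rose and Chd5 fell (−3.49 ± 0.19). The partner that fell was Mbd2 (−0.48 ± 0.04), named after its value was seen. Polycomb partners had 13 higher and 4 lower of 23, with Pcgf6 (0.99 ± 0.05) and Asxl1 (0.60 ± 0.04) higher and the PRC1 subunit Yaf2 lower (−0.66 ± 0.04). SWI/SNF partners had 8 higher and 1 lower of 15 tested: Bcl7a rose by 1.004 ± 0.05 and the bromodomain subunit Pbrm1 by 0.95 ± 0.05, and Ss18 fell (−0.57 ± 0.04). Several of these genes lie on the chromosomes with shifted medians and changed in the same direction: Pbrm1 on chromosome 14, Mta2, Rcor2 and Pcgf6 on chromosome 19, Yaf2 on chromosome 15, and Mbd2 and Ss18 on chromosome 18. The part of those shifts in their values was not tested.

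Called shares by list ran from 60.0% for SWI/SNF partners to 100% for other demethylases and DNA methylation partners, against 75.6% of all genes. Lysine methyltransferases outside the Setd family had 10 higher and 4 lower of 22. The H3K9 methyltransferase Suv39h2 (1.11 ± 0.07), the H4K20 methyltransferase Suv420h2 (0.99 ± 0.08) and the H3K36 methyltransferase Whsc1 (0.68 ± 0.04) were higher. Suv420h2 builds on the mark that Setd8 puts down. Acetyltransferases had 9 higher and 3 lower of 13, among them Kat5 (0.66 ± 0.05), Ncoa1 (0.62 ± 0.05) and Crebbp (0.32 ± 0.04). Of 6 tested demethylases outside the rule 3 rose, such as Kdm1b (0.46 ± 0.05) and Phf8 (0.33 ± 0.04), and 3 fell, such as Jmjd6 (−0.35 ± 0.05). Other remodellers had 14 higher and 3 lower of 21. Cecr2, a partner of ISWI ATPases, rose from 46 counts in all Puro libraries to 445 in all Prdm16 libraries (3.29 ± 0.21), Chd1l by 0.73 ± 0.06 and the lymphoid helicase Hells by 0.49 ± 0.04. Hells and Kat5 lie on chromosome 19, with its median of 0.39. Genes around DNA methylation split into 6 higher and 6 lower. Idh1 (1.89 ± 0.07) and Idh2 (0.76 ± 0.03), which make the 2-oxoglutarate that Tet and Kdm2 to Kdm6 enzymes use, rose. The damage response gene Gadd45a fell (−1.61 ± 0.07).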

How the data were processed

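The authors deposited 1 table of raw counts, whole numbers for each gene symbol in each of the 6 libraries. The submitters' processing notes name STAR, featureCounts, Subread and the build mm9, with no role or order; for versions, annotation, strand setting and the handling of reads shared with pseudogenes or paralogs: not given in the sources used here. Values of genes with near-identical copies (Cbx1, Cbx3, Hdac1 and Smarca5, for example) or antisense partners are therefore uncertain. Groups and replicate numbers came from the sample labels. Library totals were 28169059 to 35798201 counts, and the common biological coefficient of variation was 4.78%.

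Genes were filtered with filterByExpr, scaled by TMM and compared by the two-sided quasi-likelihood test of edgeR 4.0.16 in R 4.3.3, with Benjamini-Hochberg adjustment over 13805 genes. The SE came from the log2 fold change and the F statistic. The test was tried on simulated data first. Levels per kilobase used merged exon lengths of GENCODE M21 on GRCm38. Pairs of replicates within a group gave a chi-square of 2.08 to 8.85 per gene (1 under counting noise alone), and each library was counted as 1 sample.

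Members and lists were chosen with earlier results of these data known. Per-library values are given for members past the threshold with a log2 fold change of at least 1 in size and a mean of at least 1 CPM in the higher group, for the 2 of each class with the smallest p, and for a few others chosen after their values were seen (Hdac4, Hdac7, Hdac11, Kdm5b, Chd4, Chd9). From each companion list up to 3 genes with the smallest p are named, and 5 proliferation genes were set for naming, the others after their values were seen. Alternatives were RLE and upper-quartile scaling, other filters, DESeq2 1.42.0, limma-voom (limma 3.58.1), a replicate block, each library left out, Prdm16 left out, a stricter threshold and chromosome medians removed through offsets. The counts cover all members, and 1 member is not reported here by itself.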

Additional observations from a re-analysis of the deposited data

How the results depend on the processing

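Of the 54 called members 42 kept their call and direction in all 15 refits in which they were fitted (Kdm4d could not be fitted under the filter of 1 CPM), among them Hdac9, Chd7, Chd3, Chd5, Hdac4, Setd8, Dnmt3a, Tet2, Ezh1, Ezh2 and Smarca2. The other 12 had log2 fold changes of at most 0.50 in size, and of the 25 members that did not pass 12 never passed. The counts of higher and lower members were 38 and 16, and 34 to 40 and 12 to 15 with each library left out. A replicate block gave 34 higher and 13 lower. Of the members named here it ended the calls of Cbx3, Cbx6, Hdac10, Kdm3b, Kdm5c and Smarcd2 and changed no other call. The deviations of same-numbered libraries correlated at −0.16, 0.10 and −0.07, and those of differently numbered libraries at −0.19 to 0.25. So few libraries cannot decide whether the replicate numbers pair the samples. DESeq2 gave 37 and 13.

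A minimum log2 fold change of 1 left 3 higher and 2 lower members, 7 and 2 companion genes and 9 and 0 proliferation genes. It left 3 Chd remodellers, 1 deacetylase and 1 Kdm demethylase, and 0 in every other class. Of the heterochromatin protein 1 genes 1 was called, in place of 2, with upper-quartile scaling, DESeq2, the replicate block or an adjusted p of 0.01, and 1 to 2 with each library left out. Of the PRC1 Cbx genes 1 was called, in place of 3, with upper-quartile scaling, the filter of 1 CPM, the replicate block or an adjusted p of 0.01, and 1 to 4 with each library left out. SWI/SNF had 8 called with chromosome medians removed and 2 at an adjusted p of 0.01. The paralog difference of Hdac9 to Hdac7 was 4.994 with a pseudocount of 0.1.

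Signs turned with chromosome medians removed for Kdm2a (−0.0856), Kdm3b (0.312), Hdac10 (0.207), Smarcd1 (0.337), Smarcc1 (0.108), Smarca4 (0.0930), Setd2 (0.0300), Setd5 (−0.0445) and Tet3 (−0.0406), as the shift applied was larger than their change. The remaining turns were in members that did not pass and lay near 0. Upper-quartile scaling gave Smarca1 −0.00392, Setd5 −0.0178 and Tet3 −0.0140, and the filter of 1 CPM gave Setd5 −0.00614 and Tet3 −0.00218. Without a filter Smarca4 had 0.00166, Smarcc1 0.0168 and Hdac6 0.00698, and Smarcc1 had 0.00210 with RLE scaling and 0.00511 with DESeq2. With each library left out the ranges were −0.0423 to 0.0901 for Smarca1, −0.126 to 0.0608 for Kdm4b, −0.038 to 0.018 for Smarca4, −0.0214 to 0.0295 for Smarcc1, −0.039 to 0.0272 for Setd5, −0.00909 to 0.0266 for Tet3 and −0.154 to 0.0117 for Hdac5. The causes were not tested. Few counts limit Hdac9 in the Puro group (92 in all) and Chd5 and Kdm4d in the Prdm16 group (45 and 39).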
